A study of Mus musculus with 8 samples.

Results

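The transcripts described here are those of 9 kinases of the mitogen-activated protein kinase (MAPK) cascade, from the 23143 genes counted in RAW264.7 cells, a mouse macrophage line, during stimulation with lipopolysaccharide (LPS). They were picked by gene symbol, with earlier results of these data known. They comprise the MAP3 kinases Map3k8 (TPL2), Map3k7 (TAK1) and Map3k5 (ASK1), the MAP2 kinases Map2k1 (MEK1) and Map2k3 (MKK3), the MAP kinases Mapk3 (ERK1) and Mapk14 (p38α), and the kinases Mapkapk2 (MK2) and Mapkapk3 (MK3), which p38 activates. RNA had been sequenced from 8 cultures, 1 unstimulated (0 min) and 7 exposed to 100 ng/ml LPS of E. coli for 15, 30, 45, 60, 75, 90 or 120 min. The labels name no altered gene, and all groups share the line and the medium and differ in the time with LPS. Each time point has 1 library, and RAW264.7 is an immortalized line, so no animals stand behind the groups. The labels call the RNA cytoplasmic, whereas the methods describe a purification of total RNA.

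Macrophages sense LPS, which forms part of the outer membrane of Gram-negative bacteria, through the receptor TLR4. Signals from TLR4 reach TAK1, which with its TAB partners activates the IκB kinases and, through MAP2 kinases such as MKK3, the p38 kinases. TPL2 is held inactive in a complex with the Nfkb1 product p105 and the adaptor Tnip2 (ABIN-2), is freed when p105 is degraded, and then activates MEK1 and its paralog MEK2, which switch on ERK. MK2 and MK3 act below p38 and relieve the block on mRNAs with AU-rich elements, such as that of Tnf. These steps work by phosphorylation and degradation of proteins, which read counts of transcripts do not show.

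Each library held 100250892 (75 min) to 159077286 (120 min) counted reads. Counts were divided by median-of-ratios size factors, which gives what is called normalized counts below. The ribosomal RNA precursor Rn45s took 8.18% to 9.11% of the reads in the 0, 30, 60 and 120 min libraries and 13.0% to 20.5% in the 15, 45, 75 and 90 min libraries, the largest share being at 75 min. Scaling by total counts in place of size factors lowers the median log2 ratio to 0 min of the 10494 genes averaging 100 or more normalized counts by 0.03 to 0.33, depending on the library, and by 0.20 at 120 min. The macrophage genes Lyz2, Csf1r and Cd68 had mean normalized counts of 432076, 117546 and 31652, and all 10 macrophage markers averaged 100 or more. Summed over each list, the normalized counts in the 8 libraries were 765403 to 875704 for the macrophage markers, 96.5 to 151 for 6 T cell markers (Lck making up most), 24.3 to 48.1 for 5 B cell markers, 0.890 to 5.65 for 5 epithelial markers and 0 to 0.855 for 6 fibroblast markers. In this list of macrophage markers, Cd14 was called higher at 120 min and Fcgr1 lower. A lower transcript level in bulk RNA may mean fewer cells that express the gene or less RNA per cell, which cannot be told apart.

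Of the 9 kinases, 3 had a maximum or minimum by the rules of the study, which ask for a log2 ratio past 0.5 in size and, in a negative binomial test of library pairs, an unadjusted p-value under 0.05, against 0 min for the first extremum and against the preceding opposite extremum for a later one. Map3k8 was called higher at 30 and 45 min, and Mapk14 and Mapkapk3 were called lower at 120 min. Any such extremum was called for 17.0% of the 16967 genes with at least 1 count in the table. Shares of all genes with a call from library pairs are given below on this base. The test compares libraries, not conditions. The only test over samples that this design allows is a trend over time, fitted with edgeR as a natural spline with 3 degrees of freedom, which leaves 4 residual degrees of freedom. Map3k8, Map3k7, Map3k5, Map2k3, Mapk14, Mapkapk2 and Mapkapk3, which are 7 of the 9, had an adjusted p of at most 0.05 in that test, as had 53.5% of the 12467 genes tested.

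**Figure D1:**
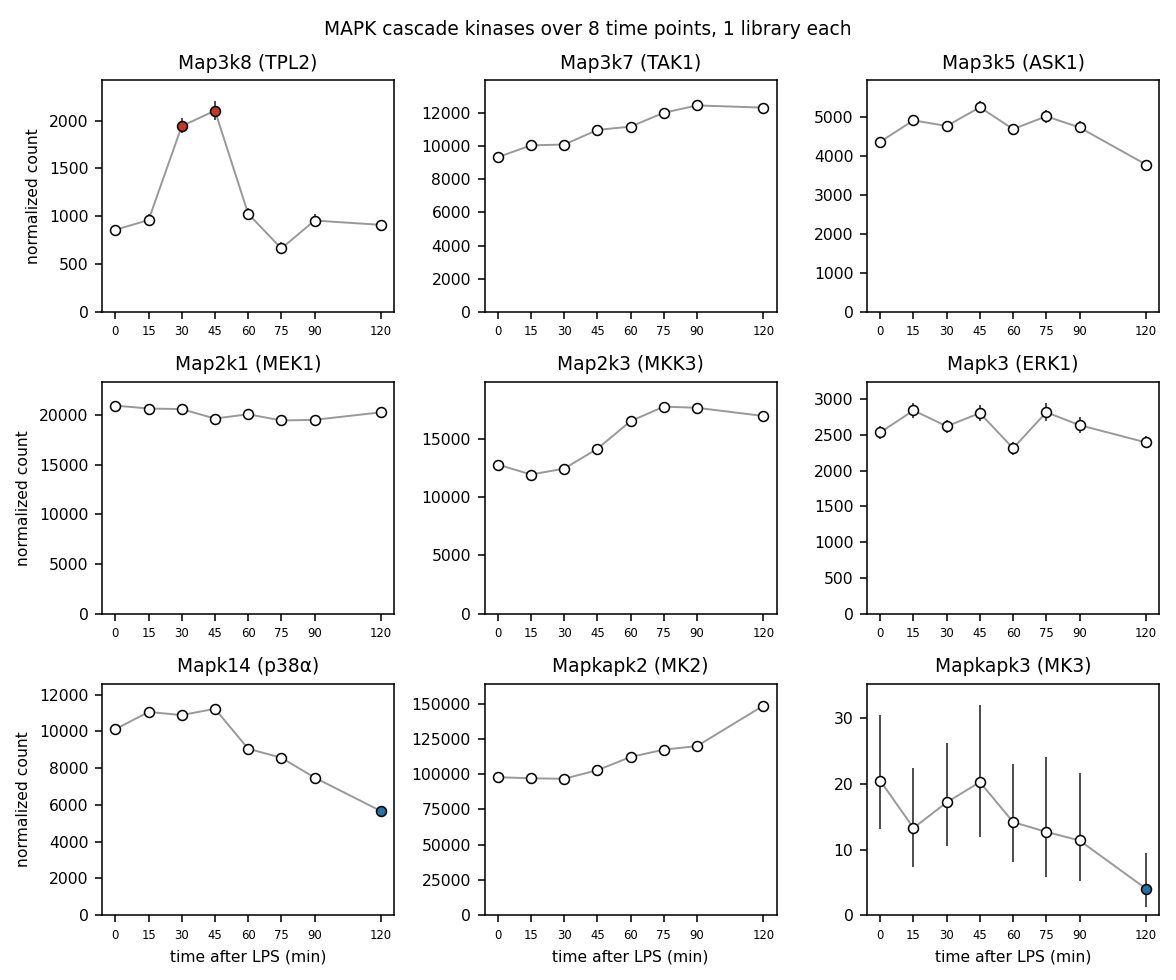
Normalized count (vertical axis, from 0, own scale in each panel) of each of the 9 kinases against time after LPS in min (horizontal axis). Each point is 1 library and each bar an exact Poisson 95% interval, which covers counting error only; red points were called higher than 0 min and blue points lower, and white points were not called. Map3k8 peaks at 1943 and 2104 at 30 and 45 min, Mapk14 falls to 5662 at 120 min, and Mapkapk3 stays at or below 20.5.

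Map3k8 (chromosome 18, 4331325 to 4352953, GRCm38) encodes TPL2, the MAP3 kinase that links NF-κB signalling to ERK in macrophages. Its transcript rose for a short time. In order of time from 0 to 120 min, the normalized counts of Map3k8 were 858, 960.1, 1943, 2104, 1026, 663, 955 and 910.1. The 30 and 45 min libraries thus stood above the other 6, and the 75 min library was the lowest. Against 0 min, Map3k8 was 2.26-fold higher at 30 min (exact conditional binomial 95% interval of the 2 counts, 2.10 to 2.44) and 2.45-fold higher at 45 min (2.27 to 2.65). These intervals, like all those given with ratios below, cover counting error only. Of the 16967 genes with at least 1 count, 1.04% were called higher at 30 min and 3.42% at 45 min.

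The rise of Map3k8 was followed by a fall of similar size. From 45 to 60 min the ratio was 0.487 (0.453 to 0.525), and from 45 to 75 min 0.315 (0.284 to 0.349), both called lower. At 75 min the level was 0.773 of that at 0 min (0.691 to 0.863), a difference not called, and at 120 min the ratio was 1.06 (0.973 to 1.16). By the rules of the study, with early meaning before 60 min, this put Map3k8 in pattern g3, an early maximum with a later minimum. This pattern held 137 genes, or 0.807% of the 16967 genes with at least 1 count. The first maximum lay at 45 min in 126 of these 137 genes and the following minimum at 75 min in 27. The 30 and 45 min libraries differed by a ratio of 1.08 (1.02 to 1.15), and their order depended on the scale, since Map3k8 took 17.0 of 1e6 counts (cpm) at 30 min and 16.5 at 45 min.

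The highest count of Map3k8 lay at 30 min among the libraries with a low Rn45s share and at 45 min among those with a high share. The libraries with a low share gave 858, 1943, 1026 and 910.1 normalized counts at 0, 30, 60 and 120 min, and those with a high share gave 960.1, 2104, 663 and 955 at 15, 45, 75 and 90 min. With the 0, 30, 60 and 120 min libraries alone, Map3k8 was again called in g3. The libraries with a high share include no unstimulated culture and were not put through the rules alone. Over all 8 libraries the trend test of edgeR gave Map3k8 an adjusted p of 0.0192 (Benjamini-Hochberg, all genes tested), with a fitted curve that spanned 1.30 on the log2 scale. That call is not firm: over 17 other settings the adjusted p ranged from 8.05e-04 to 0.473. It was lost with a quadratic curve (0.386), with a straight line (0.473), and without the 30, 45, 75, 90 or 120 min library (0.0525 to 0.0831).

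Nfkb1 and Tnip2, whose products hold TPL2, behaved differently from Map3k8. Nfkb1 stayed between 19350.3 and 19959 normalized counts up to 45 min, then stood at 24949.7, 30158, 32032 and 48192 at 60, 75, 90 and 120 min. At 120 min it was 2.49-fold higher than at 0 min (2.45 to 2.53) and called higher, with an adjusted p of 3.31e-05 for the trend in edgeR. Tnip2 lay between 2692 and 3235 in all 8 libraries and had no called extremum (trend adjusted p in edgeR 0.152). Nfkb1 was thus still at its unstimulated level in the libraries where Map3k8 peaked, and highest at 120 min, where Map3k8 stood at 1.06 of its level at 0 min.

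The genes most like Map3k8 over the 8 libraries, among 10492 genes that averaged 100 or more normalized counts and had none at 0, were Etv1 (Pearson r of log2 normalized counts 0.970), Slc20a2 (0.961), Kctd6 (0.943), Ier2 (0.930) and Zfp433 (0.927). These 8 points share libraries and scale factors, so the coefficients are descriptions only. A coefficient takes no account of size, and the log2 ratio at 45 min was 0.22 for Etv1, 0.16 for Slc20a2, 0.32 for Kctd6 and 0.41 for Zfp433, none of which had a called extremum. Ier2, an immediate early gene, was the only one of the 5 in pattern g3, whose normalized count went from 4153 in the unstimulated library to 58974 at 45 min and back to 7539 at 75 min.

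**Figure D2:**
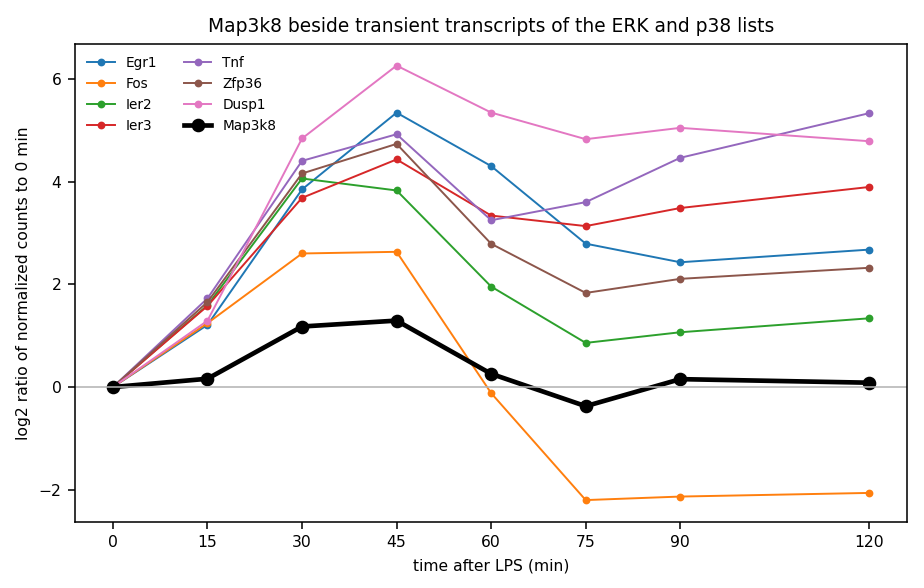
Log2 ratio of normalized counts to 0 min (vertical axis) against time after LPS in min (horizontal axis) for Map3k8 (thick black line) and the 7 genes of the ERK and p38 lists that were in pattern g3, a selection made after their values were seen. Each point is 1 library; Map3k8 reaches 1.29 at 45 min, below the 2.63 of Fos and the 6.26 of Dusp1 at the same time.

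The other MAP3 kinases among the 9 had smaller ratios to 0 min. Map3k7 (chromosome 4, 31963492 to 32023470) encodes TAK1, which receives the signal from TRAF6 and the TAB proteins. Normalized counts of Map3k7 were 9338, 10053, 10101, 10982, 11185, 12020.2, 12461 and 12330.2 from 0 to 120 min. By size factors, the 0 min library was the lowest and the 3 libraries from 75 min on were the highest; in cpm, 75 min (85.1) lay below 15 min (85.6). At 120 min Map3k7 was 1.32-fold higher (1.29 to 1.35), a log2 ratio of 0.40 that is under the limit for a call. It rose in the trend test of edgeR (adjusted p 8.59e-04), but not with total counts as the scale, where the log2 ratio at 120 min was 0.20 and the adjusted p 0.424 (range over 17 settings 9.16e-11 to 0.424).

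Of the 3 TAB partners of TAK1, Tab1 was called lower and Tab2 and Tab3 were called higher at 120 min. Tab1, whose product binds and activates TAK1, had 4666, 3236 and 2547 normalized counts in the 0, 60 and 120 min libraries, with a ratio of 0.546 at 120 min (0.522 to 0.571). Tab2, which couples TAK1 to ubiquitin chains, was at 6969.7, 8655 and 12479 at the same times, 1.79-fold higher at 120 min (1.74 to 1.84) and called higher. Tab3, a paralog of Tab2 that was singled out after its values were seen, was called higher as well, with 1217 normalized counts before LPS and 2074 after 120 min. Of the rpkm of the 3 TAB transcripts, Tab1 made up 47.1% at 0 min and 21.4% at 120 min, and Tab2 47.3% and 70.5%, shares that do not depend on how libraries are scaled.

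Map3k5 (chromosome 10, 19934101 to 20142750) encodes ASK1, which responds to oxidative stress and is restrained by thioredoxin. Normalized counts of Map3k5 were 4363, 4910.1, 4765, 5245, 4686, 5015, 4728 and 3778 from 0 to 120 min. The 6 libraries from 15 to 90 min were above 0 min by size factors (not in cpm, where 75 min was at 35.5 and 0 min at 38.9), and the 120 min library was below all others, at 0.866 of 0 min (0.832 to 0.901), with no call. Its trend had an adjusted p of 0.0160 in edgeR, which became 0.360 without the 120 min library and 0.319 with a straight line (range over 17 settings 0.00151 to 0.360).

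Among the MAP2 kinases, Map2k1 was level and Map2k3 rose. Map2k1 (chromosome 9, 64185769 to 64253605) encodes MEK1, the substrate of TPL2 and activator of ERK. Normalized counts of Map2k1 lay between 19465 (75 min) and 20965 (0 min), a highest to lowest ratio of 1.08, the smallest of the 9. At 120 min the ratio to 0 min was 0.968 (0.951 to 0.985), and the trend had an adjusted p of 0.222 in edgeR. With total counts, the trend of Map2k1 passed the threshold (adjusted p 0.0440), as it did with total counts without Rn45s (0.00354); over 17 settings the adjusted p ranged from 0.00354 to 0.455. Its paralog Map2k2 (MEK2) was at 10634 normalized counts at 0 min and 12337 at 120 min, 1.16-fold higher (1.13 to 1.19) and not called. Map2k1 made up 66.1% of the rpkm of the pair at 0 min and 61.9% at 120 min.

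Map2k3 (chromosome 11, 60932054 to 60952811) encodes MKK3, a dedicated activator of p38. Normalized counts of Map2k3 were 12813, 11958, 12465 and 14179 in the 4 libraries from 0 to 45 min, followed by 16549.7, 17797, 17696 and 16991 from 60 to 120 min. The 4 libraries from 60 min on did not overlap with the 4 earlier ones. The share of all genes with such a separation was not counted. The largest ratio was 1.39 at 75 min (1.36 to 1.42), a log2 ratio of 0.47 that stayed just under the limit of 0.5. The trend had an adjusted p of 2.14e-04 in edgeR and passed in all 17 other settings, at 0.0377 or lower. The second p38 activator, Map2k6 (MKK6), was scarce, with 246, 247 and 146 normalized counts in the 0, 60 and 120 min libraries; the last, a ratio of 0.592 (0.489 to 0.716), was not called (trend adjusted p in edgeR 0.00690). Map2k3 made up 98.0% of the rpkm of the 2 p38 activators at 0 min and 99.1% at 120 min.

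Mapk3 (chromosome 7, 126759626 to 126765816) encodes ERK1. Its normalized counts lay between 2315 (60 min) and 2845 (15 min). The 4 libraries with the larger Rn45s share, at 2845, 2808, 2819 and 2639 (15, 45, 75 and 90 min), all lay above the 4 with the smaller share, at 2537, 2623, 2315 and 2397 (0, 30, 60 and 120 min). In cpm they did not, with 24.2, 22.0, 20.0 and 19.7 against 22.6, 22.9, 19.3 and 18.6. How many of all genes show such a split was not counted. No library was called, and the trend had an adjusted p of 0.688 in edgeR (0.0643 with the Rn45s share as a covariate, and 0.0474 to 0.841 over 17 settings, the lowest with total counts).

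Mapk14 (chromosome 17, 28691342 to 28748405) encodes p38α, the main p38 kinase of macrophages, and its transcript fell. Normalized counts of Mapk14 were 10112, 11055, 10885 and 11228 from 0 to 45 min, followed by 9054, 8562, 7486 and 5662 from 60 to 120 min. The 4 libraries from 60 min on lay below the 4 earlier ones, and each was lower than the one before. How many of all genes show such an order was not counted. At 120 min Mapk14 was at 0.560 of 0 min (0.544 to 0.577), a log2 ratio of -0.84 that was called lower, as were 6.18% of genes. The call is made at 120 min alone: from 0 to 90 min the ratio was 0.740 (0.717 to 0.764), which was not called, and Mapk14 had no extremum with adjusted p-values of the library pairs or with a log2 limit of 1. The trend over 8 libraries had an adjusted p of 7.00e-05 in edgeR and passed in all 17 other settings, at 0.00372 or lower.

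The other p38 transcripts remained far below Mapk14. Mapk11 (p38β) had 466 normalized counts before LPS and 335 after 120 min; the ratio of 0.718 (0.630 to 0.817) was not called. Mapk13 (p38δ) was at 41.1 and 44.6 normalized counts at these times. Mapk12 (p38γ) stayed between 0.952 and 5.73. Mapk14 accounted for 92.6% of the rpkm of the 4 p38 transcripts before LPS and for 90.3% after 120 min. The genes most like Mapk14 over the 8 libraries were Mlh3, Ehd4 and Lipe (r 0.996 each), Madd and Fam117b (0.995 each), of which all but Lipe were in g2, the pattern of Mapk14, with a minimum at or after 60 min. Fam117b reached a log2 ratio of -1.23 at 120 min.

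Mapkapk2 (chromosome 1, 131053700 to 131097871) encodes MK2, the kinase through which p38 stabilises inflammatory mRNAs. It was the most abundant transcript of the 9 in every library. Normalized counts of Mapkapk2 were 97915, 97110.4, 96785 and 102873 at 0, 15, 30 and 45 min, then 112259.7, 117418, 120005 and 148666 at 60, 75, 90 and 120 min. The libraries from 45 min on were above the first 3, in the order of time, which rests on the size factors, since in cpm 45 min was the lowest (806) and 75 min (832) lay below 0 min (873). At 120 min it was 1.52-fold higher (1.51 to 1.53), a log2 ratio of 0.60 (0.40 with total counts) that is beyond the limit of 0.5 but missed the p-value limit of the library test. It was called in pattern g1, a maximum at or after 60 min, when the dispersion was fitted on genes averaging 10 or more normalized counts. The trend of Mapkapk2 had an adjusted p of 4.85e-04 in edgeR and passed in all 17 other settings, at 0.0386 or lower.

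Mapkapk3 (chromosome 9, 107254927 to 107289877), which encodes the close relative MK3, was almost absent. The raw counts were 24, 14, 21, 18, 16, 9, 9 and 5 from 0 to 120 min, against 114455 counts of Mapkapk2 at 0 min. The ratio at 120 min was 0.197 (0.0588 to 0.528) and was called lower; 5 counts set the width of that interval. The call was absent with adjusted p-values and with the dispersion fitted on genes averaging 10 or more normalized counts. The trend had an adjusted p of 0.0267 in edgeR, but 0.277 in the likelihood ratio test of DESeq2, 0.0548 without the 30 min library and 0.521 without the 120 min library (range over 17 settings 0.0125 to 0.521). Mapkapk5 (PRAK), the third kinase of this family, was at 4073 normalized counts at 0 min and 4688 at 120 min with no call. The transcripts most like Mapkapk3 were Uros (r 0.985), Mtif2, Smyd4, Map2k6 and Nacc2 (0.971), coefficients that carry the counting error of Mapkapk3.

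Per length, the 9 transcripts spanned a wide range. At 0 min the levels in rpkm (reads per kilobase of unique 58-base positions and per 1e6 counted reads) were 312 for Mapkapk2, 78.6 for Map2k1, 53.4 for Map2k3, 23.4 for Mapk14, 14.4 for Map3k7, 13.0 for Mapk3, 7.22 for Map3k5, 3.05 for Map3k8 and 0.0664 for Mapkapk3. No neighbours in this order had overlapping Poisson 95% intervals, the closest being Map3k7 (14.2 to 14.7) and Mapk3 (12.5 to 13.5); spread between cultures could not be measured. Map3k8 was thus the scarcest of the 3 MAP3 kinases at 0 min, and at its highest rpkm, 6.77 at 30 min, it came near Map3k5 (7.73). At 120 min the order was the same except that Map3k7 (16.6) stood above Mapk14 (11.4).

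**Figure D3:**
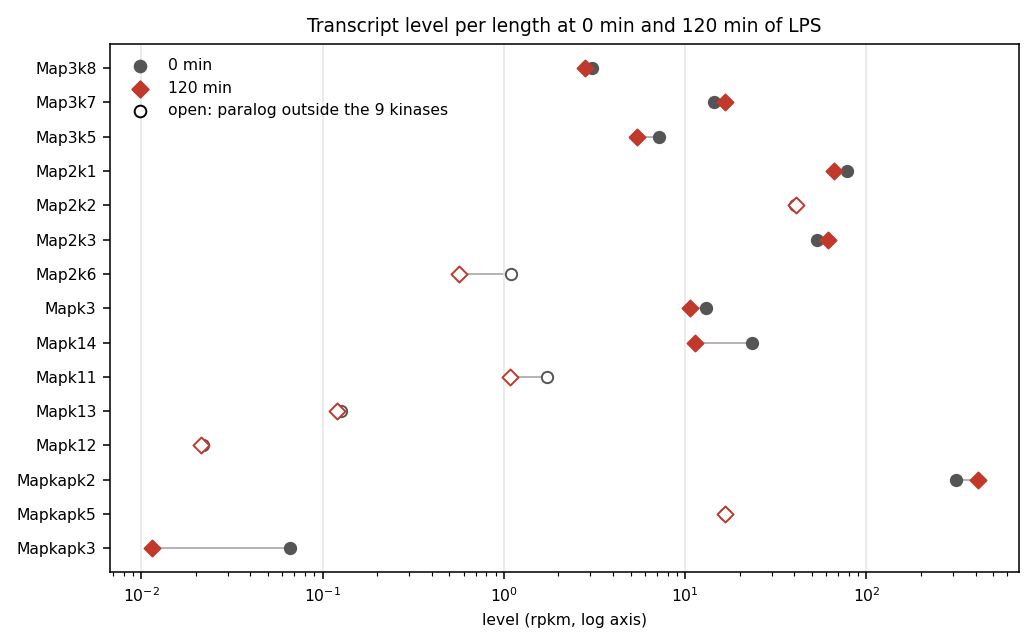
Level of the 9 kinases (filled) and of paralogs (open) in rpkm on a log axis, at 0 min (circles) and at 120 min (diamonds), 1 library each; lines join the 2 times of a gene. Mapkapk2 lies at 312 and 412, Map3k8 at 3.05 and 2.81, Mapk14 at 23.4 and 11.4, and Mapkapk3 at 0.0664 and 0.0114. Rpkm is scaled by all counted reads and not by size factors, so its changes over time differ from those of normalized counts. By size factors the ratio of Map3k8 at 120 min was 1.06.

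Promoter sequences of 250 bases before and 50 after an annotated start are shown for Map3k7, Map2k3, Mapkapk2 and Mapk14. At 120 min, Map3k7, Map2k3 and Mapkapk2 stood above 0 min without a call, and Mapk14 was called lower. Genes with opposite directions at 120 min can thus be set side by side. The sequences are from RefSeq (GRCm38.p6) and read 5′ to 3′ on the strand of the gene. Capitals mark matches on either strand to an NF-κB sequence (GGANTTNCC), an AP-1 sequence (TGANTCA), a CRE (TGACGTCA) or a GC box (GGGCGG), with N for any base. The regions are chr4:31963857-31964156 on the plus strand for Map3k7, chr11:60931804-60932103 on the plus strand for Map2k3, chr1:131097794-131098093 on the minus strand for Mapkapk2 and chr17:28691092-28691391 on the plus strand for the upstream start of Mapk14.
Map3k7: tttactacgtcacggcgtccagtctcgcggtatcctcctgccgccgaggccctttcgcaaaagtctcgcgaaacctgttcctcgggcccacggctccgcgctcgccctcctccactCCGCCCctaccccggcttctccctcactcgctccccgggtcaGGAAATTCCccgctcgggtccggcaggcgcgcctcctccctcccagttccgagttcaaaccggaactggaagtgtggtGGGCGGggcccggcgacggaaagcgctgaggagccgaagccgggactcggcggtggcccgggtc
Map2k3: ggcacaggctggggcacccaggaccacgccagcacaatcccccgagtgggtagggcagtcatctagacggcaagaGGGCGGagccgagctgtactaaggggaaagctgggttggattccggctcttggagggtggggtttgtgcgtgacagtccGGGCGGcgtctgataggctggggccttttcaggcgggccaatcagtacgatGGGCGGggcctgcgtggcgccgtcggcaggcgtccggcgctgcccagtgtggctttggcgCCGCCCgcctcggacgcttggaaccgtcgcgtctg
Mapkapk2: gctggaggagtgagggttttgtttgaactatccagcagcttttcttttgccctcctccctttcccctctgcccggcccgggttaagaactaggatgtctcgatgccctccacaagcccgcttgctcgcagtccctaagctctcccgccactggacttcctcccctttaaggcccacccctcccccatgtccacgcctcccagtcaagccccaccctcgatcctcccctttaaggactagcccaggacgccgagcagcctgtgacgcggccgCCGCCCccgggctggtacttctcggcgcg
Mapk14: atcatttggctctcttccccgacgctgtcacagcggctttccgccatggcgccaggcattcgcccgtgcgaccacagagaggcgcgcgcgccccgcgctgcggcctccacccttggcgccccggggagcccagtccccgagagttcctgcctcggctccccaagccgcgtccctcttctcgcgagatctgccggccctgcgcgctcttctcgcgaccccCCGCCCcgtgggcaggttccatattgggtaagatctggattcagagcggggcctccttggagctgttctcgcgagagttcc
The table held 9 promoters of 7 of the 9 kinases. It held none of Map3k8 or Mapk3, so the promoters of these kinases were not searched for matches. Map3k7 had the only NF-κB match, at position -92 from the annotated start used here, and 3.95% of all 32851 promoters in the table hold such a match. This promoter region of Map3k7 lies within the span given above for the gene, which begins at 31963492. No match to the AP-1 sequence or the CRE, held by 7.81% and 1.79% of all promoters, was found in the 9 promoters searched. GC boxes, held by 35.7% of all promoters, numbered 2 in Map3k7, 4 in Map2k3, 4 in Map2k1, 2 in Map3k5, 1 in Mapkapk2 and 1 in the upstream promoter of Mapk14. The GC content was 69.0% for Map3k7, 68.0% for Map2k3, 63.3% for Mapkapk2 and 68.7% for Mapk14, against a median of 52.7% over all promoters. These matches describe letters and not binding.

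In the rest of the cascade, 47 further kinases were examined, of which 37 averaged 100 or more normalized counts. A called extremum was found for 9 of the 47 (17.0% of all genes), with 5 higher and 4 lower at 120 min, where 7.05% of all genes were called higher and 6.18% lower. The median log2 ratio of the 37 was 0.05 at 60 min and -0.07 at 120 min, beside -0.01 at both times over all genes with such an average. The split of all genes at 120 min moved with the scale, from 1196 higher and 1049 lower to 677 and 1250 with total counts. A trend was called for 28 of the 39 of these kinases that were tested, beside 53.5% of the 12467 genes tested.

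The calls among these 47 fell on MAP3 kinases and on kinases activated by MAP kinases. None of the other 5 MAP2 kinases or 12 MAP kinases had an extremum, beside 17.0% of all genes. Of these 12 MAP kinases, 4 averaged under 10 normalized counts, and lists this small cannot show a difference from that share. Among 21 other MAP3 kinases, 6 had an extremum. At 120 min, 3 were higher and 3 lower, beside 7.05% and 6.18% of all genes. Map3k12 (DLK) had 399.5 normalized counts before LPS and 82.7 after 120 min, a ratio of 0.207 (0.165 to 0.257). Map3k1 (MEKK1) was at 0.442 of 0 min at 120 min (0.427 to 0.458), and Map3k9 (MLK1) at 0.490 at 90 min (0.425 to 0.564). Braf, a RAF kinase that like TPL2 activates MEK1, was 2.27-fold higher at 120 min (2.16 to 2.38), with 2062 normalized counts at 0 min and 4680.4 at 120 min. None of the 21 was in pattern g3, the pattern of Map3k8, beside 0.807% of all genes. At that share, its absence from 21 genes does not set Map3k8 apart.

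Of 9 other kinases activated by MAP kinases, 3 had an extremum, beside 17.0% of all genes. Rps6ka3 (RSK2) was 1.99-fold higher at 45 min (1.84 to 2.14), Rps6ka2 (RSK3) 1.82-fold higher at 120 min (1.60 to 2.08), and Rps6ka5 (MSK1) at 0.604 of 0 min at 120 min (0.560 to 0.652). Of 24 partners and scaffolds, 4 were higher and 2 lower at 120 min, beside 7.05% and 6.18% of all genes. The 20 that averaged 100 or more normalized counts had a median log2 ratio of 0.13 at 120 min. Spag9 (JIP4), a scaffold for JNK and p38, had the largest ratio, with 9526 normalized counts at 0 min and 28208 at 90 min, a 2.96-fold difference (2.89 to 3.03).

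**Figure D4:**
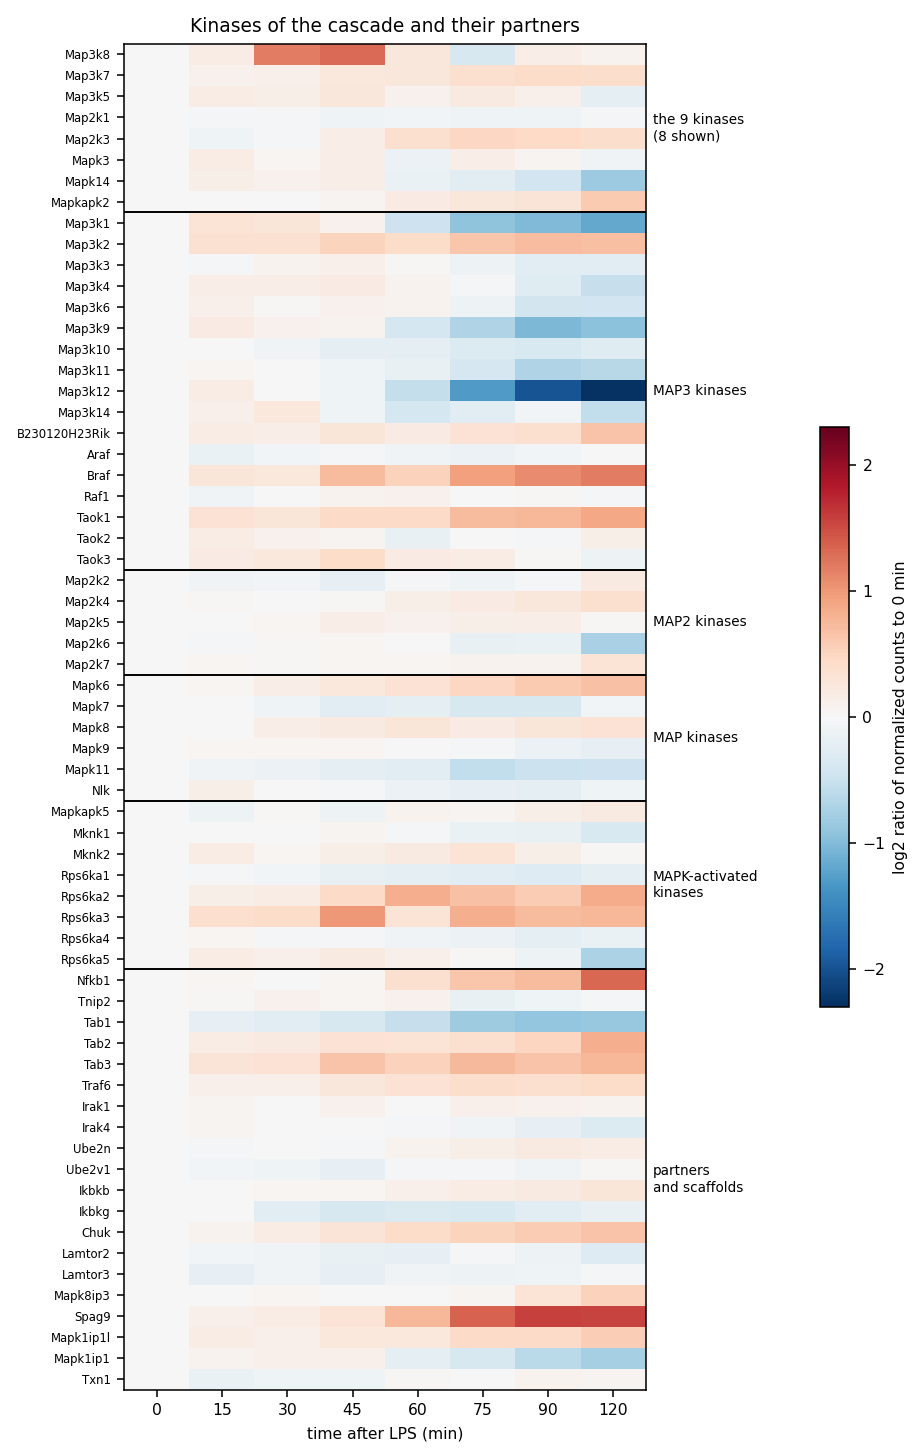
Log2 ratio of normalized counts to 0 min (colour, red higher and blue lower, limits at 2.3) for 64 kinases, partners and scaffolds averaging 100 or more normalized counts (rows, grouped by list) in 8 libraries (columns, time after LPS in min). Map3k8 is the row with its darkest red at 30 and 45 min, Map3k12 reaches -2.27 at 120 min and Spag9 1.57 at 90 min; Mapkapk3 is left out for its low counts.

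Transcripts known to depend on the ERK and p38 arms were listed with their changes in these libraries known, so that their values are a description. Of 17 ERK target and feedback genes, 11 had a called extremum, beside 17.0% of all genes. At 60 min, 7 were higher and 1 lower, beside 3.14% and 2.16% of all genes. At 120 min, 7 were higher and 3 lower, beside 7.05% and 6.18%. The median log2 ratio of the 13 averaging 100 or more normalized counts was 1.96 at 60 min and 1.34 at 120 min. Dusp5, a phosphatase of ERK, was 72.1-fold higher at 120 min (62.2 to 84.1), and Phlda1 51.0-fold (39.9 to 66.3). Egr1 was 40.6-fold higher at 45 min (31.2 to 53.8) and was in pattern g3 like Map3k8. Ier3 had 933 normalized counts before LPS and 20139 at 45 min. The 3 lower at 120 min were Fos, Dusp6 and Etv5, named after their values were seen, with log2 ratios of -2.06, -3.09 and -1.01; Dusp6 encodes a phosphatase of ERK, as Dusp5 does.

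All 11 transcripts listed as dependent on p38 and MK2 were higher at 60 and at 120 min, where 3.14% and 7.05% of all genes were called higher. The median log2 ratio of the 10 averaging 100 or more normalized counts was 3.55 and 5.56 at these times. Il1b was 2808-fold higher at 120 min (2098 to 3849.8), Cxcl2 1032-fold (888 to 1207) and Ccl4 84.4-fold (80.8 to 88.2). Il6 had 1 count at 0 min and 974 normalized counts at 120 min, a ratio of 1139 with an interval of 204 to 45014. In pattern g3 were 4 of the 11, namely Tnf, Zfp36, Dusp1 and Ier3, the last of which is also in the ERK list. At 120 min, where Mapk14 stood at 0.560 of its level at 0 min and Mapkapk2 at 1.52, Tnf was at 359742 normalized counts against 8922 at 0 min. Whether these transcripts and the kinases are linked was not tested.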

How the data were processed

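RNA of 8 RAW264.7 cultures was sequenced by the authors after removal of ribosomal RNA, with 1 library per time point. The submitters' processing notes name CASAVA 1.8.2 and DESeq 1.10.1. Bowtie was used to map the 58-base reads to mm10 RefSeq transcripts, and a read that fitted more than 1 gene symbol was dropped (methods). Whether strand was used in counting is not given in the sources used here. The deposited values are raw read counts, summed by the authors for each gene symbol, and no column was left out.

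The 9 kinases, the gene lists and the tests were chosen with earlier results of these data known. Library pairs were compared after the DESeq settings of the study, with code for Python 3.11.15 (numpy 2.4.6, scipy 1.17.1): median-of-ratios size factors, a dispersion fitted over the 8 libraries (0.0287 plus 0.853 divided by the mean) and an exact negative binomial test. The trend was fitted to the raw counts with edgeR 4.0.16 in R 4.3.3 (TMM factors, filterByExpr, quasi-likelihood F-test, Benjamini-Hochberg adjustment over all genes tested). Labels do not say whether the cultures are independent. The p-values of the trend weigh the fitted change over time against the deviation of single libraries from a smooth curve. They do not rest on a spread between cultures of the same time point. Rpkm uses the number of 58-mers unique to a gene in GENCODE transcripts (GRCm38); none of the 9 kinases shares a 58-mer with another gene. Coordinates are from RefSeq. Intervals of ratios are exact conditional binomial and those of rpkm exact Poisson; PCR copies are not independent molecules, so these intervals leave out all but counting error. A count of 0 allows 3 counts, or at most 0.0299 cpm. The code was tested on simulated data.

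Beyond the 9 kinases, genes are named by rule: from each list up to 4 genes with a called extremum, an average of 100 or more normalized counts and the largest log2 ratio; paralogs of the 9, of which 1 is not reported here; Nfkb1 and Tnip2; the 5 genes most like each kinase with an extremum; Rn45s. Lyz2, Csf1r, Cd68, Lck, Tab3, Fos, Tnf, Zfp36, Dusp1, Dusp6 and Etv5 fall outside it. Alternatives were other scales (total counts with and without Rn45s, TMM, correction for a trend with transcript length), adjusted p-values, other limits and filters, other curves, the Rn45s share as a covariate, DESeq2 1.42.0 and each library left out.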

Additional observations from a re-analysis of the deposited data

How the results depend on the processing

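The number of kinases with a called extremum was 3 in the analysis reported and 1 (Map3k8) with adjusted p-values. It ranged from 1 to 3 when each library after 0 min was left out in turn, with 1 without the 120 min library, by the construction of that setting for Mapk14 and Mapkapk3. It was 2 with a log2 limit of 1 (Map3k8 and Mapkapk3), 4 with the log2 limit alone and 3 in the other settings, although with genes averaging 10 or more normalized counts Mapkapk2 took the place of Mapkapk3. Map3k8 was called in pattern g3 in all of these settings. Its log2 ratio was 1.14 to 1.19 at 30 min and 1.11 to 1.32 at 45 min over the 4 other scales. The number of kinases with a trend was 7, ranged from 4 to 7 with each library left out (4 without the 120 min library) and was 5 to 8 in the other settings. With the longest transcript as the length, 4 of the 9 rpkm levels moved past their counting intervals, the largest in relative size being Mapk14, from 23.4 to 25.1. Signs turned for small ratios at 120 min that were never called. Map3k8 went from 0.09 to -0.12 with total counts and to -0.11 with total counts without Rn45s. These scales shifted the median log2 ratio at 120 min by -0.20 and -0.19. With the correction for length, Map2k1 went from -0.05 to 0.01 and Mapk3 from -0.08 to 0.01. The counts are the same in each case, so these signs turned with the scale or the length correction alone. No paired analysis was possible because each time point has 1 library. With 1 library per time point the data limit the trend test to 4 residual degrees of freedom, and for Mapkapk3 the depth gives 5 counts at 120 min.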
